A study of Mus musculus with 6 samples.

Results

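The C1q chains and Fc gamma receptors of macrophages, with the adaptors that carry their signal, were read on the arrays by 15 probe sets of 8 genes, out of 45037 probe sets tested. The probe sets are all those that the platform annotation gives to C1qa, C1qb, C1qc, Fcgr1, Fcgr2b, Fcgr3, Fcer1g and Tyrobp, and none of them names a further gene. The genes were listed as ones known to be abundant in tissue macrophages. Macrophages (F4/80+CD11b+) had been sorted from pooled L4 and L5 DRG ipsilateral to spared nerve injury (SNI), 7 days after surgery, and each of 3 WT and 3 miR-21 cKO pools went to its own array. Donors were males of 8 to 10 weeks. The WT mice were littermates of the miR-21 cKO mice, in which an Avil-Cre driver removes a conditional miR-21 allele from sensory neurons. All 6 pools came from injured mice, so no array shows macrophages of an uninjured ganglion. How many mice made up a pool is not given in the sources used.

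C1q is the recognition molecule of the classical complement pathway. It is assembled from the A, B and C chains, binds antibody complexes and dying cells, and is made by macrophages and microglia themselves. Fc gamma receptors bind the constant part of IgG, and most of them signal through adaptors that carry an immunoreceptor tyrosine-based activation motif (ITAM), while Fcgr2b carries an inhibitory motif of its own. The miRNA removed from the neurons of the cKO mice is shown here because it defines the comparison. Capitals mark the seed, bases 2 to 8, and the sequences are those of RefSeq on GRCm38.p6. The 5p arm lies at chr11:86584120-86584141 and the 3p arm at chr11:86584082-86584103, both on the minus strand.
mmu-miR-21a-5p: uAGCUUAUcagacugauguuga
mmu-miR-21a-3p: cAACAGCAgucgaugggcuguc

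In GRCm38.p6 the C1q genes lie side by side on chromosome 4, with C1qb at 136880126 to 136886200, C1qc at 136889801 to 136892936 and C1qa at 136895916 to 136898844. Together they span 18.7 kb. Fcgr2b (170960558 to 170976071), Fcgr3 (171051169 to 171065915) and Fcer1g (171229572 to 171234349) share a stretch of chromosome 1. Fcgr1 is on chromosome 3 (96282909 to 96293969) and Tyrobp on chromosome 7 (30413782 to 30417582). Fcgr2b and Fcgr3 are close relatives in their IgG-binding part, so a probe set of one may bind RNA of the other. Probe set names ending in _s_at or _x_at also mark probes that other transcripts can share.

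None of the 15 probe sets was brighter than the olfactory receptor background on all 6 arrays. Olfactory receptors (Olfr) are genes of smell, most of them not known to be used by macrophages, and their 47 probe sets stand in for background because the deposited signals carry no detection calls. The background of an array is the 95th percentile of its Olfr signals, which was 1464 to 2194 over the 6 arrays. Of all tested probe sets, 0.355% exceeded it on all 6 arrays. Against the Olfr median of each array (330.2 to 690.2) the count was also 0 of 15, with 3.96% of all probe sets. Of 90 readings of the C1q and Fc receptor probe sets, 3 (3.33%) were above the 95th percentile and 38 (42.2%) above the median. Over all probe sets these shares were 5.76% and 40.6%. A signal under this background does not show that a transcript was absent, and how strongly a probe set binds is not known.

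**Figure D1:**
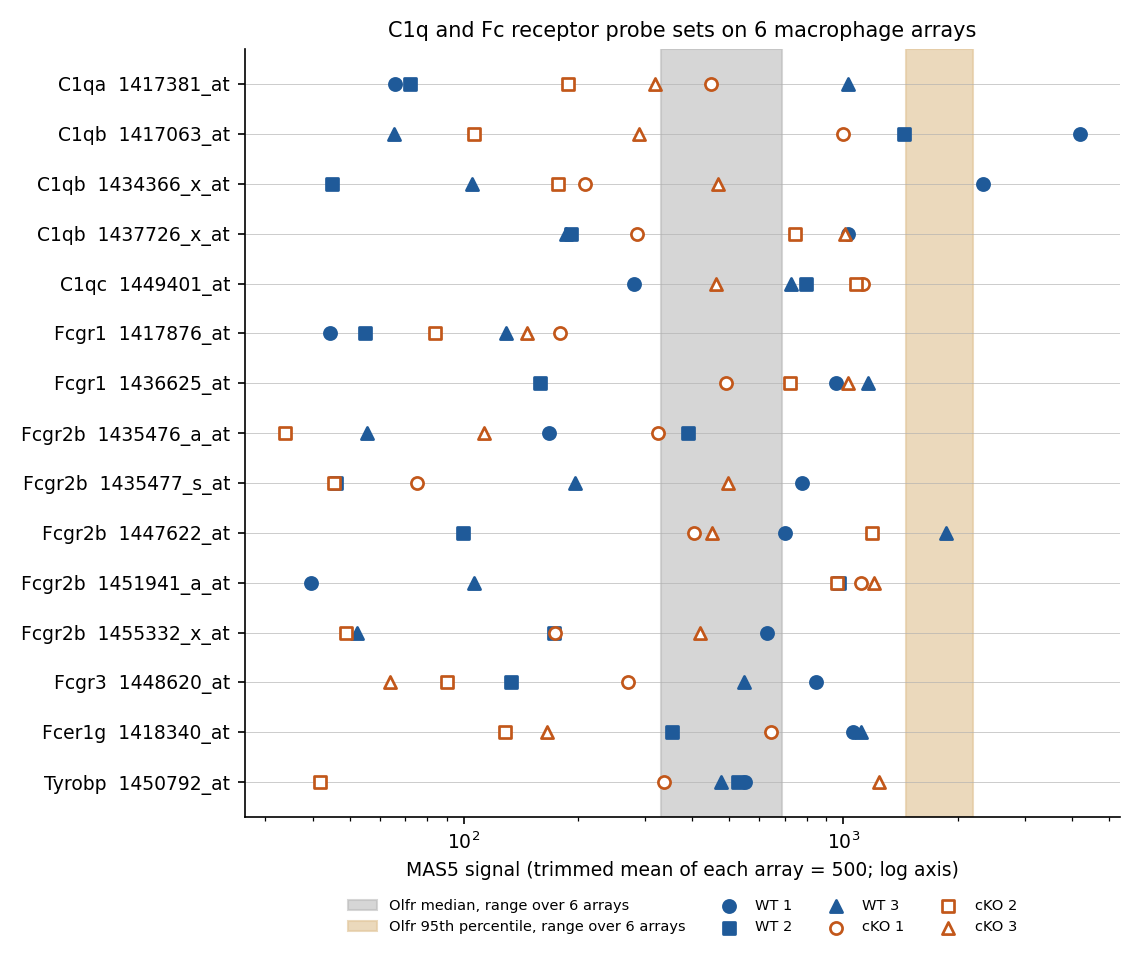
Signal of each C1q and Fc receptor probe set (rows) on a log axis in MAS5 units, for 3 WT arrays (filled) and 3 miR-21 cKO arrays (open). The bands are the ranges over 6 arrays of the Olfr median (330.2 to 690.2) and of the Olfr 95th percentile (1464 to 2194), and all but 3 of the 90 points lie under the Olfr 95th percentile of their array.

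The sorted cells were checked against their own markers. Adgre1, which encodes F4/80, was above the Olfr 95th percentile on 5 of 6 arrays, with 1979 to 2559 in WT and 2095, 96.9 and 2821 in miR-21 cKO. Itgam, which encodes CD11b, was above it on 0 of 6. Of 12 macrophage markers 0 were above it on all 6 arrays, and their median percentile among all probe sets ran from 40.9 to 88.3 between arrays. Itgam and Cd14 were higher in miR-21 cKO at 2-fold and an unadjusted p under 0.05 in limma, and both overlapped between the genotypes. Of all genes, with the brightest probe set of each, 4.37% were called in either direction. The other 10 macrophage markers did not pass. Of these, Adgre1 (-1.44), Csf1r (-0.95), Lyz2 (-0.44), Cd68 (-0.35) and Mertk (-0.04) were below 0 on the log2 scale and the rest above. The summed signal of the 12 was 9797 to 15691 in WT and 7816 to 31442 in miR-21 cKO. Of 10 sensory neuron markers 2, Nefl (2.97 on the log2 scale) and Gal (3.84), were higher as well, beside the same 4.37% of all genes. Nefl overlapped between the genotypes, and Gal was above the Olfr 95th percentile on 0 of 6 arrays. The other 8 did not pass. Of these, Nefh (-0.8), Tac1 (-0.74) and Trpv1 (-0.18) were below 0 and the rest above. What part the cell make-up of the pools has in the values that follow was not tested. For the C1q and Fc receptor probe sets the median percentile was 70.8, 38.0 and 44.0 in WT and 53.1, 33.8 and 59.8 in miR-21 cKO. WT array 1 was the brightest for them, with 10 of 15 above its Olfr median, beside 48.2% of all probe sets. On miR-21 cKO array 1 there were 3 of 15, beside 29.3% of all, and its Olfr median (690.2) was the highest of the 6. In sorted pools, fewer cells of a kind and less RNA per cell cannot be told apart.

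**Figure D2:**
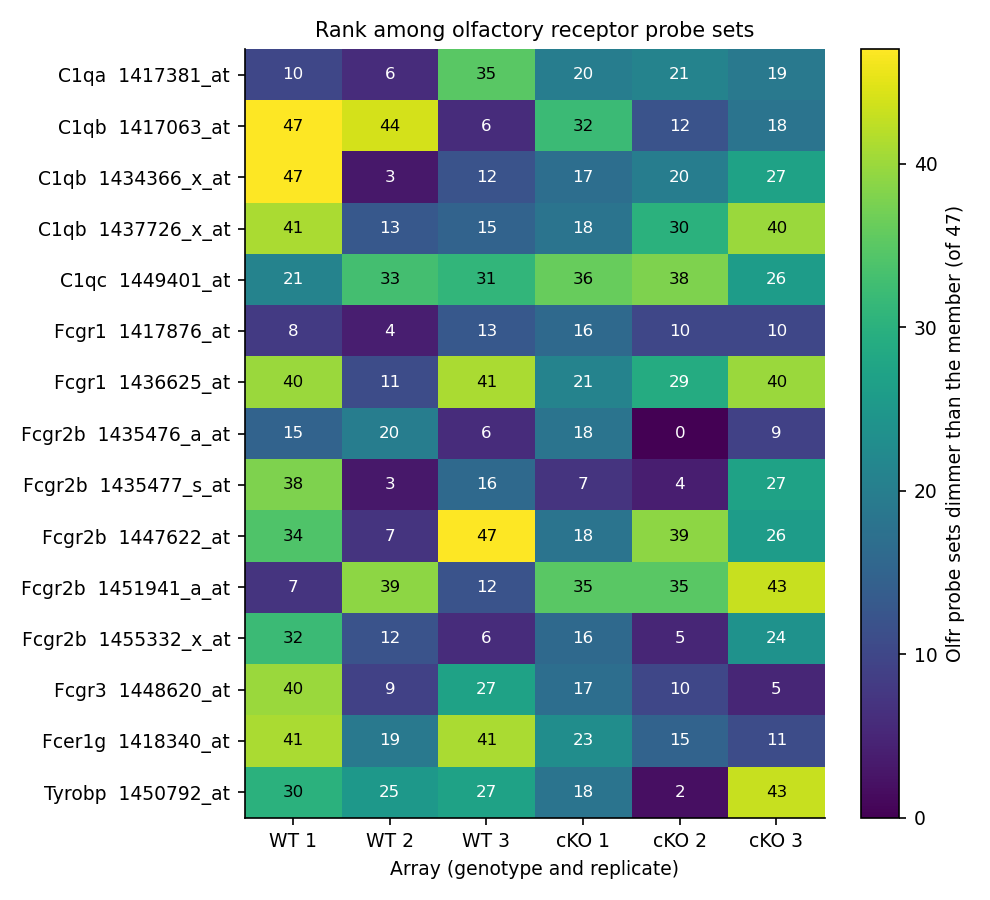
Number of the 47 Olfr probe sets that were dimmer than each C1q or Fc receptor probe set (rows) on each array (columns). A probe set brighter than all 47 occurs 3 times, for 2 C1qb probe sets on WT array 1 and for Fcgr2b on WT array 3, and no row is bright throughout.

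C1qa encodes the A chain and was read by 1 probe set (1417381_at). It read 65.8, 72.0 and 1029 in WT and 447, 188 and 319 in miR-21 cKO. WT array 3 was the highest and the other WT arrays the lowest of all 6, so the genotypes overlapped. Only on WT array 3 was it above the Olfr median. C1qc, the C chain, was read by 1 probe set (1449401_at). It gave 280.2, 799 and 727 in WT and 1124, 1079 and 461 in miR-21 cKO, a 4.01-fold range, and with the Fcgr1 probe set 1417876_at (4.03-fold) it varied least over the 6 arrays. It was above the Olfr median on 5 of 6 arrays and above the 95th percentile on none.

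C1qb encodes the B chain and has 3 probe sets, of which 2 were above the Olfr 95th percentile on WT array 1 and none on any other array. Probe set 1417063_at read 4198, 1441 and 65.3 in WT and 997, 106 and 289.7 in miR-21 cKO. That is a 64.3-fold range inside WT, the widest of the 15. Probe set 1434366_x_at read 2329, 44.9 and 105 in WT and 208, 177 and 466 in miR-21 cKO. Probe set 1437726_x_at read 1030.1, 191 and 186 in WT and 285, 746 and 1011 in miR-21 cKO. All 3 were at their highest on WT array 1, where those 2 were brighter than every Olfr probe set. They parted on the other arrays, by up to 32.1-fold on WT array 2. C1qa and C1qc, the neighbours of C1qb on the chromosome, read 65.8 and 280.2 on WT array 1, each its lowest value of the 6 arrays.

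**Figure D3:**
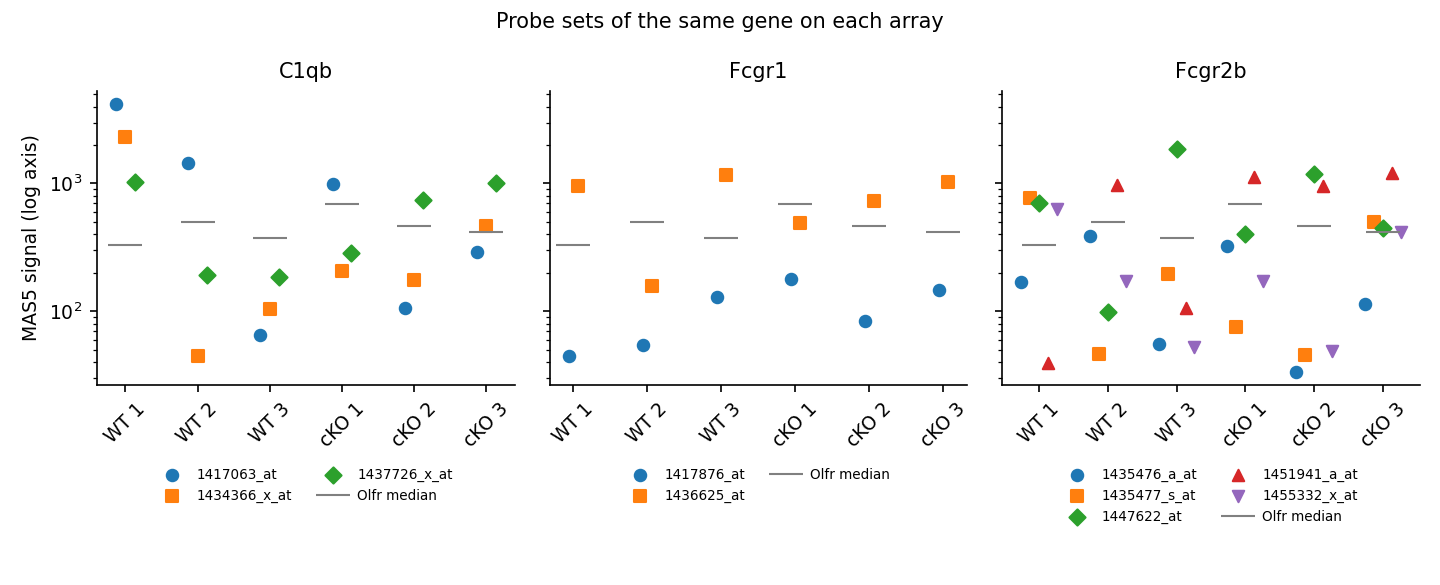
Signals (log axis, MAS5 units) of the probe sets of C1qb, Fcgr1 and Fcgr2b on each array, with the Olfr median of the array as a grey bar. Probe sets of the same gene differ by 2.74-fold to 35.7-fold on an array, and the C1qb probe sets are all at their highest on WT array 1.

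Fcgr1 encodes CD64, the high-affinity receptor for IgG and a usual surface marker of macrophages. Its probe set 1417876_at read 44.3, 54.9 and 129 in WT and 179, 84.1 and 147 in miR-21 cKO, under the Olfr median on all 6 arrays. Its other probe set, 1436625_at, read 957, 159 and 1162 in WT and 489.6, 724 and 1026 in miR-21 cKO, above the Olfr median on 4 of 6 arrays. The gap between these probe sets of Fcgr1 was 2.74-fold to 21.6-fold. Fcgr3 encodes CD16, a low-affinity activating receptor, with 1 probe set (1448620_at). It read 847, 133 and 546 in WT and 270.0, 90.2 and 63.8 in miR-21 cKO, and the genotypes overlapped.

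Fcgr2b encodes CD32b, the inhibitory receptor for IgG, and has 5 probe sets that did not agree on which array was brightest. Probe set 1451941_a_at read 39.6, 976 and 106 in WT and 1115, 962 and 1204 in miR-21 cKO. Probe set 1447622_at read 702, 99.3 and 1864 in WT and 403, 1186 and 449.5 in miR-21 cKO. The first was low on WT arrays 1 and 3 alone, and the second was at its peak on WT array 3. Probe sets 1435476_a_at, 1435477_s_at and 1455332_x_at were designed from the same sequence record, by the annotation. Of these, 1435477_s_at read 776, 45.9 and 196 in WT and 75.4, 45.5 and 497 in miR-21 cKO. In like manner 1455332_x_at read 630.3, 173 and 52.2 in WT and 174, 49.0 and 419 in miR-21 cKO. These 2 had their highest signal on WT array 1 and their lowest on miR-21 cKO array 2. The third, 1435476_a_at, read 168, 389 and 55.4 in WT and 324, 33.7 and 113 in miR-21 cKO, with its peak on WT array 2. On WT array 3 the 5 probe sets spanned 35.7-fold.

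Fcer1g encodes the common Fc receptor gamma chain, the ITAM adaptor that Fcgr1 and Fcgr3 need and that the IgE receptor of mast cells shares. Its probe set (1418340_at) read 1062, 354 and 1115 in WT and 645, 128 and 166 in miR-21 cKO. The miR-21 cKO arrays lay lower, and array 1 of that genotype overlapped WT array 2. Tyrobp encodes DAP12, the ITAM adaptor of TREM2 and other myeloid receptors. It read 550.3, 527 and 477 in WT and 337, 41.7 and 1241 in miR-21 cKO (1450792_at). Its WT arrays agreed within 1.15-fold, the closest of all 15, while its miR-21 cKO arrays were 29.7-fold apart.

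Whether loss of miR-21 in sensory neurons went with other levels of these transcripts in macrophages was tested with limma across all probe sets. At the thresholds of the methods (unadjusted p under 0.05 and at least 2-fold) 1 of the 15 was higher in miR-21 cKO, the Fcgr2b probe set 1451941_a_at, against 2.11% of all probe sets. None was lower, against 2.40% of all. After Benjamini-Hochberg adjustment over all tested probe sets 0 of 15 passed in limma, where 0.0222% of all did, and each member had an adjusted p = 0.9999. The methods' t-test, which takes the spread of each probe set by itself, called 0 of 15 at the same thresholds, with 4.94% of all probe sets called, and its smallest unadjusted p among them was 0.11. The genotypes overlapped for all 15. Of all probe sets 9.81% had no overlap, and 15 probe sets are too few to tell 0 from that share. The fitted log2 fold change (miR-21 cKO minus WT) was above 0 for 8 members and below 0 for 7. Its median was 0.21, beside -0.03 over all probe sets.

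**Figure D4:**
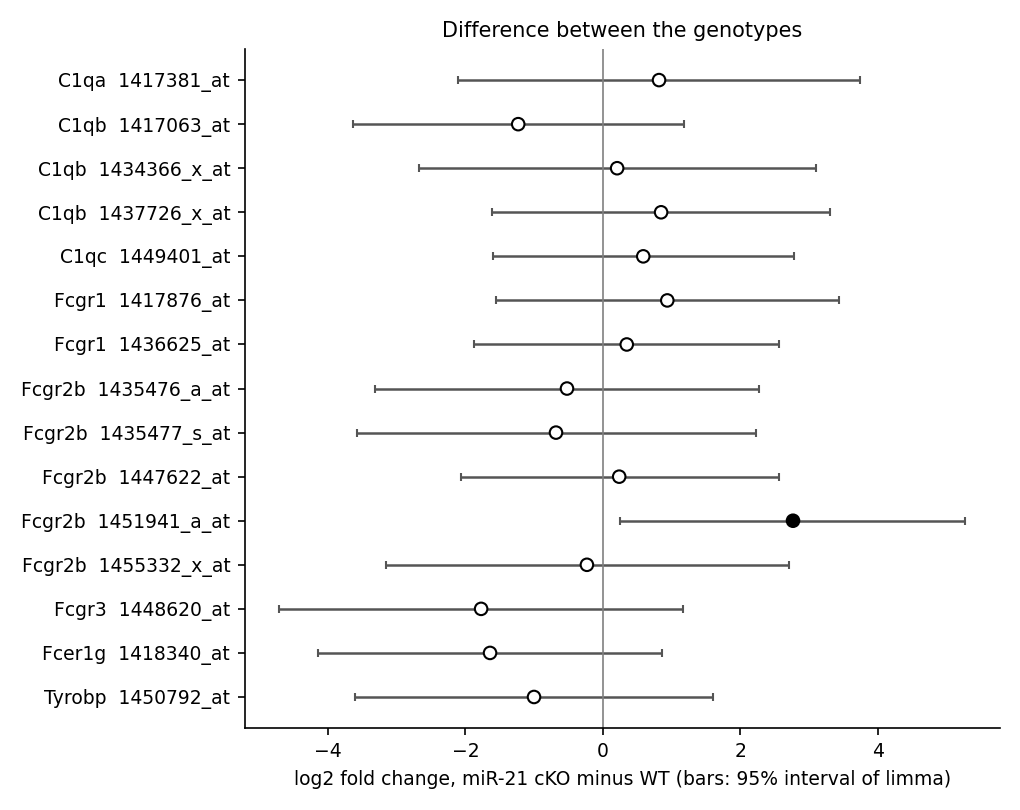
Fitted log2 fold change, miR-21 cKO minus WT, of each C1q and Fc receptor probe set with its 95% interval from limma (3 arrays per genotype). The filled point, Fcgr2b 1451941_a_at at 2.77, is the one called at the thresholds of the methods, and all other intervals include 0.

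For Fcgr2b 1451941_a_at the WT signal was 374 ± 522 (SD, n = 3), against 1094 ± 123 (SD, n = 3) for miR-21 cKO. The log2 fold change was 2.77 (standard error, SE, 1.28, 95% interval 0.25 to 5.28, unadjusted p = 0.031 from limma). In the exact permutation test over the arrays the two-sided p was 0.2, where 3 arrays against 3 allow no less than 0.1. The call was lost when WT array 1 (1.76) or WT array 3 (2.47) was left out, and likewise for miR-21 cKO array 1, 2 or 3 (2.75, 2.86 and 2.69). Without WT array 2 it held, at 4.07. For the other Fcgr2b probe sets the log2 fold change was -0.52 (1435476_a_at), -0.68 (1435477_s_at), 0.24 (1447622_at) and -0.23 (1455332_x_at), and none passed. All 6 readings of 1451941_a_at were under the Olfr 95th percentile, so its fold change is one of measured signals only.

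The C1q chains did not pass in either direction. The log2 fold change was 0.82 for C1qa (SE 1.49, interval -2.10 to 3.74) and 0.59 for C1qc (SE 1.11, interval -1.59 to 2.78). For the C1qb probe sets it was -1.23 (1417063_at), 0.21 (1434366_x_at) and 0.85 (1437726_x_at), with intervals that all include 0. Signals of 1417063_at averaged 1901 ± 2105 (SD, n = 3) for WT, against 464 ± 470.3 (SD, n = 3) for miR-21 cKO, so the spread within WT exceeded the difference. Its value turned on single WT arrays. Without WT array 3 it was -2.97 and passed the thresholds, and without WT array 1 it was 0.03. C1qc had the narrowest interval of the 15.

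Fcgr3 and Fcer1g had the most negative values, and neither passed. Fcgr3 went from 508 ± 358 (SD, n = 3) to 141 ± 112 (SD, n = 3), a fitted change of -1.77 on the log2 scale (SE 1.5, interval -4.71 to 1.17). Fcer1g went from 844 ± 425 (SD, n = 3) to 313 ± 288 (SD, n = 3), with -1.64 (SE 1.28, interval -4.15 to 0.86). Both kept a negative sign in all 6 fits that leave out 1 array (-2.55 to -1.22 and -2.36 to -1.19) and passed in none of them. Mast cells also use Fcer1g. Of 9 mast cell markers 2 were lower at the thresholds, Fcer1a and the tryptase Tpsab1, beside 4.37% of all genes called in either direction. The other 7 did not pass, with Ms4a2 (0.31), Cpa3 (0.82) and Hdc (0.71) above 0 on the log2 scale. The summed signal of the 9 was 4568 to 5827 in WT and 2756 to 6124 in miR-21 cKO, and 0 of them were above the Olfr 95th percentile on all 6 arrays. The part of mast cells in the Fcer1g values was not tested. Tyrobp had -1.0 (SE 1.33, interval -3.61 to 1.61), and 0.32 without miR-21 cKO array 2. For Fcgr1 the log2 fold change was 0.94 with 1417876_at (SE 1.27, interval -1.56 to 3.44) and 0.35 with 1436625_at (SE 1.13, interval -1.87 to 2.57), and neither passed.

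The wider pathway was read through 7 lists of complement and Fc receptor genes, with 82 of 100 listed names measured and the brightest probe set taken for each. The gene of C5 is listed as both C5 and Hc, and was measured as Hc. At the thresholds 1 gene was higher and 5 were lower in miR-21 cKO, which is 7.32% of the 82, beside 4.37% of all genes measured so. None passed an adjusted p in limma. The methods' t-test called 8 of the 82, beside 4.66% of all genes, and 4 of the 8 were among these 6. The others were Itgax (-2.41 on the log2 scale), C4bp (-2.17) and Sirpb1a (-2.42), lower in miR-21 cKO, and Sirpa (1.13), higher. The genotypes did not overlap for 5 of the 6 (all but Itgam), and for 11 of the 82, beside 9.69% of all genes. The median log2 fold change was -0.28. None of the 6 calls held in all 6 fits that leave out 1 array.

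Of 6 complement components measured, Hc, which encodes C5, was lower, with 777, 1165 and 1883 in WT and 354, 82.7 and 138 in miR-21 cKO. The fitted change was -2.91 on the log2 scale (SE 1.27), and the call was lost without WT array 2 (-2.92), WT array 3 (-2.58) or miR-21 cKO array 2 (-2.43). The other 5 did not pass. Of 10 complement regulators none passed in limma. Those with the smallest p were C4bp, a binding protein of C4 (-2.17), and Cd55, which speeds the decay of C3 convertases (-1.42). Of 10 complement receptors, Itgam, the alpha chain of complement receptor 3, was higher, with 157, 45.7 and 985 in WT and 1016, 983 and 1296 in miR-21 cKO. The Itgam log2 fold change, 2.51 (SE 1.25), kept its call only without WT array 3 (3.68), and was lowest without WT array 2 (1.47). The other 9 did not pass in limma. Itgax, which encodes CD11c, read 341, 367 and 389 in WT and 54.3, 102 and 58.1 in miR-21 cKO. Its log2 fold change was -2.41 (SE 1.49), with an unadjusted p of 0.11 in limma and 0.0012 in the methods' t-test. All its readings were under the Olfr 95th percentile, and it was named after its values were seen.

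Among 11 other Fc receptors, 2 were lower and 9 did not pass. Fcer1a, the IgE-binding chain of mast cells and basophils, read 793, 522 and 106 in WT and 40.9, 38.1 and 47.7 in miR-21 cKO (log2 fold change -3.07, SE 1.41). That call was kept without WT array 2 (-2.79) and WT array 3 (-3.94) and lost in the other 4 fits (-2.48 to -3.16). Fcrl1, a receptor-like molecule of B cells, read 183, 787 and 1650.4 in WT and 85.3, 41.6 and 64.5 in miR-21 cKO (log2 fold change -3.34, SE 1.51). It was lost without WT array 2 (-3.17), WT array 3 (-2.63) or miR-21 cKO array 2 (-3.06). Fcgr4, the activating receptor for IgG2 read 355, 1716 and 85.9 in WT and at most 415 in miR-21 cKO and did not pass, with -1.06 (SE 1.46). Fcgr4 was chosen after its values were seen.

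**Figure D5:**
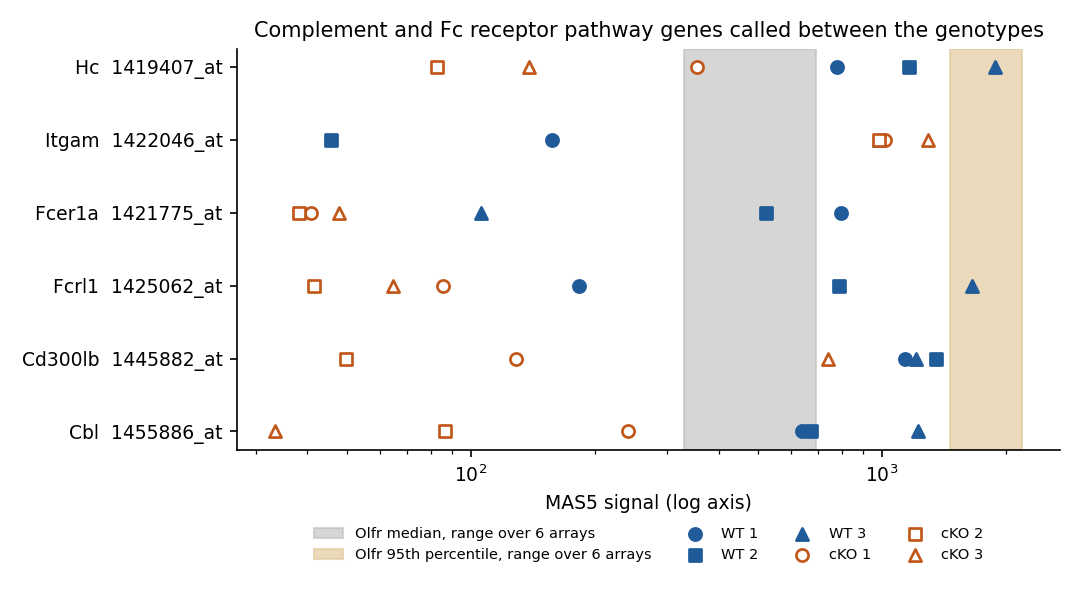
Signals (log axis, MAS5 units) of the 6 pathway genes called at the thresholds of the methods, with 3 WT arrays filled and 3 miR-21 cKO arrays open. Bands are the ranges over 6 arrays of the Olfr median and 95th percentile. WT and miR-21 cKO points are apart for all but Itgam, and all but 2 readings, Hc and Fcrl1 on WT array 3, lie left of the second band.

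Of 18 receptors that pair with Fcer1g or Tyrobp, Cd300lb, an activating receptor of myeloid cells, was lower. It read 1134, 1354 and 1209.8 in WT and 129, 49.7 and 737 in miR-21 cKO (log2 fold change -2.87, SE 1.25). The call was kept without miR-21 cKO array 1 (-2.68) and array 3 (-3.94), and lost without array 2 (-2.0) or any WT array (-2.80 to -2.93). Trem2, the receptor best known to pair with Tyrobp and chosen after its values were seen, read 1482, 3319 and 523 in WT and 533, 377 and 2319 in miR-21 cKO and did not pass. Of 21 genes of ITAM and ITIM signalling, Cbl, a ubiquitin ligase that ends receptor signalling, was lower. It read 637, 671 and 1219.9 in WT and 241, 86.5 and 33.3 in miR-21 cKO (log2 fold change -3.19, SE 1.45). The Cbl call was kept without miR-21 cKO array 1 (-3.91) and array 2 (-3.17) and lost in the other 4 fits. With the mean of its 3 probe sets Cbl had -0.56 and did not pass. Of 6 transcription factors linked to these genes none passed, and the smallest p were those of Maf (1.45) and Spi1 (PU.1, -1.28).

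In these lists 2 of 82 genes were above the Olfr 95th percentile on all 6 arrays, beside 0.709% of all genes. Both are of signalling and both were named after their values were seen. Ptpn6 encodes SHP-1, the phosphatase that inhibitory receptors recruit. Of its 2 probe sets the brighter was 1456694_x_at. That probe set read 3601, 2823 and 2760.2 in WT and 3095, 2741 and 2355 in miR-21 cKO (log2 fold change -0.16, SE 0.69). Pik3cd, a kinase downstream of ITAM receptors, read 62150.5, 44809 and 18694 in WT and 37154, 22162 and 16278 in miR-21 cKO with 1 of its 6 probe sets (1443798_at), and the log2 fold change, -0.65 (SE 0.30), did not reach 2-fold.

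The genes with the array pattern most like that of the C1q chains were sought among 1776 probe sets with 1 gene name, members left out. Their mean log2 signal over the 6 arrays was above the 95th percentile of the Olfr means (10.02, a signal of 1037). Likeness was the root mean square difference of log2 signals centred on their mean over the 6 arrays. The mean of the brightest probe set of each chain was 0.03, 0.07 and -0.19 in WT and 0.93, -0.58 and -0.25 in miR-21 cKO on this centred scale. The closest genes were Slco4a1 (0.18), Slc9b1 (0.19), Cdc20 (0.22), Lhfpl2 (0.22) and Gapdhs (0.23), and the median probe set stood at 0.88. For the Fc receptors and adaptors the closest were Emx2os (0.33), Ccl4 (0.33), Tubgcp4 (0.34), Nagpa (0.38) and Ptgfr (0.39), with a median of 1.12. These are descriptions of 6 arrays. The 5 smallest of 1776 differences lie under the median by selection, so that gap is no measure of likeness. The C1q average hides chains that differed among themselves. So does the Fc receptor average hide its genes: on miR-21 cKO array 3 Tyrobp was at its highest (1241) and Fcgr3 at its lowest (63.8).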

How the data were processed

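RNA of sorted macrophages was amplified (WT Pico kit) and read on Mouse 430V2 arrays (Affymetrix). Expression Console software turned the scans into MAS5 signals, in a version not given in the sources used. The deposited intensity of a probe set is on a linear scale that the authors set per array, with a mean of 500.0 after 2% is trimmed at each end. The kit was designed for whole-transcript arrays and this array reads the 3' ends of transcripts, and what that does to the signals was not tested. Values carry no detection call, and the number of arrays limits the precision.

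The log2 of the signals was used, without a pseudocount (lowest signal 0.63). After 64 control probe sets were left out, 45037 of 45101 were tested. Of these, 34945 had 1 gene name, 932 several and 9160 none, and names were updated through current Entrez genes (RefSeq, GRCm38.p6). Differences are from limma 3.58.1 in R 4.3.3 (lmFit, eBayes with trend) over all probe sets, with Benjamini-Hochberg adjustment. The prior degrees of freedom were infinite, so standard errors follow the trend of spread on brightness. Student's t-test was run here on those log2 values, 1 probe set at a time, as the array methods name no test. The script was tested on simulated normal data, drawn with the spread that limma fitted. That checks the code, not how well the model suits these signals. The labels number the pools 1 to 3 in each genotype. Deviations of same-numbered pools from their genotype means correlated at -0.016, -0.018 and -0.033 over probe sets, so the fit had no pairs. Figures used matplotlib 3.10.9.

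The members and gene lists were chosen with earlier results of these data known. By rule the text names all members, each pathway gene called or otherwise the 2 of its list with the smallest p, and the 5 genes most like each group. Alternatives were quantile normalization, median centring, a floor, filters on dim probe sets, no trend, array weights and the replicate block. Others were Student's t-test, linear means, other background levels, a gene's mean over its probe sets, and leaving out each array.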

Additional observations from a re-analysis of the deposited data

How the results depend on the processing

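The 1 call among the 15 probe sets (Fcgr2b 1451941_a_at) was 1 under quantile normalization, median centring, no trend, array weights, the filter at the median level and linear means. It was 0 with signals floored at the 25th percentile and 0 in Student's t-test, and 0 to 1 when 1 array was left out. Without WT array 3 the 1 call was C1qb 1417063_at (-2.97) in place of Fcgr2b. The filter at the median level left 8 of the 15 to test. That at the 95th percentile of the Olfr mean log2 signals (10.02) left none. No member passed an adjusted p, or stood above the background on all arrays, in any setting run. With the replicate number as a block the count was also 1, and no array deviated most like the one with its own number in the other genotype. Pathway calls numbered 6 with all arrays and 1 to 6 when 1 array was left out. There were 1 without miR-21 cKO array 2, 2 without WT array 1 or 2, and 3 without WT array 3. Under quantile normalization there were 6, and with the mean over all probe sets of a gene 8. Of 113 member values under settings that keep every array, 1 changed sign, C1qb 1434366_x_at (-0.14 with the floor). When 1 array was left out, 14 of 90 did, over 8 probe sets. Their log2 fold changes ran from -2.97 to 0.03 (C1qb 1417063_at), -0.94 to 1.91 (C1qb 1434366_x_at), -0.56 to 0.87 (Fcgr1 1436625_at), -1.32 to 0.32 (Fcgr2b 1435476_a_at), -1.71 to 0.33 (1435477_s_at), -0.93 to 1.18 (1447622_at), -1.11 to 0.68 (1455332_x_at) and -2.13 to 0.32 (Tyrobp). The causes were not tested.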

Other observations

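Among the markers of other cell types, 1 gene was above the Olfr 95th percentile on all 6 arrays, and it was chosen after its values were seen. Ngp, a granule protein of neutrophils, read 4751, 1997 and 2077 in WT and 3397, 2866 and 1543 in miR-21 cKO, or -0.13 as a log2 fold change (standard error 0.72). It was 1 of 7 neutrophil markers measured, and the other 6 were not above it throughout. Over all genes, 129 of 18193 were, with the brightest probe set of each.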
